A study of Drosophila melanogaster with 2 samples.

Results

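The genes of translation factors and aminoacyl-tRNA synthetases were examined for binding of a tagged zinc finger protein. They were taken by symbol from the Ensembl annotation: protein-coding genes whose symbol begins with eIF or eEF, or is an amino acid's code (or 2 of them) followed by RS, with -m for the mitochondrial form. This gave 85 of 13968 protein-coding genes, of which 44 are named as initiation factors, 8 as elongation factors, 18 as cytosolic synthetases and 15 as mitochondrial synthetases. The binding data came from whole adult males of Drosophila melanogaster, of unknown age, from 1 transgenic line (strain CG5204-GFP) whose CG5204 protein, named Kmg, carries eGFP at its C terminus. An anti-GFP antibody precipitated the chromatin, and this single group has 2 biological replicates; control libraries were not analysed here. Whole animals mix all cell types, and no source used here names the promoter that drives the transgene. No p-values are given, because 1 group of 2 replicates holds no comparison between conditions.

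Translation begins when initiation factors bring the mRNA, the initiator tRNA and the ribosomal subunits together. Elongation factors then deliver each charged tRNA and move the ribosome along, and the synthetases charge tRNAs with their amino acids. In flies separate nuclear genes supply many, but not all, of the synthetases of the mitochondria. Several factors also have paralogs, and some of those are known for roles in the male germ line, where Kmg was first studied as a regulator of spermatocyte gene expression.

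The deposited lists hold regions with a summit and a peak signal, which is the authors' peak caller's own value on an unstated scale. The authors' list of peaks reproducible between replicates, by the irreproducible discovery rate (IDR), had 2868 entries, and each replicate list held 30000 regions, background included. A promoter peak is an IDR summit within 500 bp of any annotated transcription start site (TSS) of a gene. Distances are negative upstream of the TSS. A strong region of a replicate is one of its 2868 highest by signal, which reached down to 24.4 in replicate 1 and 24.8 in replicate 2. No source used here states read totals, so the depth is unknown.

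Sequence near the summits is shown for 7 members, to set the promoters with a Dref element beside those without. The Dref element (DRE), the word TATCGATA, is bound by the factor Dref, known from promoters of growth and replication genes. Each sequence lies within 100 bp of a summit, outside every annotated exon, and is written 5′ to 3′ on the gene's strand from the reference Release 6 genome (build dm6). Capitals mark a DRE, the shorter BEAF-32 word CGATA that each DRE contains, an E-box (CAGCTG) or a TATA word (TATAAA), on either strand. The first 4 hold a DRE and the last 3 do not.
eIF4A: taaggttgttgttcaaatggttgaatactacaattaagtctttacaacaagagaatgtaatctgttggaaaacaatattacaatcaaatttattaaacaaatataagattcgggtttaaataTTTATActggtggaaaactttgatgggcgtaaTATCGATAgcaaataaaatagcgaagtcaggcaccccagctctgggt
eEF1gamma: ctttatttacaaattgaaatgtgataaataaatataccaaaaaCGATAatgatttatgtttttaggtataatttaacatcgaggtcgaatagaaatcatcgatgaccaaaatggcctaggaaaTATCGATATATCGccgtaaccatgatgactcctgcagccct
AlaRS: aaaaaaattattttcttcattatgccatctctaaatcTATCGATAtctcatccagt
IleRS: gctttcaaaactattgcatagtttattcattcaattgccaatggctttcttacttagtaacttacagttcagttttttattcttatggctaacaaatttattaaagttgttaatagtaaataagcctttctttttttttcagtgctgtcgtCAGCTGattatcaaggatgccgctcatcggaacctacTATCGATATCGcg
eIF4EHP: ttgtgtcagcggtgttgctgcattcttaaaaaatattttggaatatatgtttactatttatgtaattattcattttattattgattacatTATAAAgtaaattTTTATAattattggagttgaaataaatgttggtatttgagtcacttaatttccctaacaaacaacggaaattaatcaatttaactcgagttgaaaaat
GluProRS: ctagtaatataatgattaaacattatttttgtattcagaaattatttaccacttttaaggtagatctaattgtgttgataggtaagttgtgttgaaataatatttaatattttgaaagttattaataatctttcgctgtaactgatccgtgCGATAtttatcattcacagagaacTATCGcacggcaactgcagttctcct
AsnRS: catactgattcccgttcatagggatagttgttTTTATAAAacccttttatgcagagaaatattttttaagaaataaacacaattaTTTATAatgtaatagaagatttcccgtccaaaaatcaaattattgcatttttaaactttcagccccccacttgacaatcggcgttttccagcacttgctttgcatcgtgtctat

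The stretch of eIF4A lay at chr2L:5981331-5981531 on the plus strand, and that of eEF1gamma at chr3R:29220008-29220171 on the plus strand. For AlaRS it lay at chr2L:8381765-8381820 on the minus strand, and for IleRS at chr3L:22288435-22288635 on the plus strand. The 3 without a DRE lay at chr3R:24109100-24109300 on the minus strand for eIF4EHP, chr3R:23958396-23958596 on the minus strand for GluProRS and chr2L:19131955-19132153 on the minus strand for AsnRS, whose stretch surrounds a replicate 1 summit and not an IDR peak.

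Promoter peaks lay at 11 of the 85 genes (12.9%, 95% Wilson interval 7.38 to 21.7), and 12.5% of all protein-coding genes had one. The share of the 85 was thus near that background. By class, they lay at 5 of 44 initiation factor genes (11.4%, interval 4.95 to 24.0), 3 of 8 elongation factor genes (37.5%, 13.7 to 69.4) and 3 of 18 cytosolic synthetase genes (16.7%, 5.84 to 39.2). None of the 15 mitochondrial synthetase genes had one, which allows a share of up to 20%. The intervals of the 4 classes overlap one another. The background share lies inside each of them except that of the elongation factors, whose lower end is 13.7% and which rests on 8 genes. All intervals cover the counting of genes only.

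The count depended on the replicate. Strong regions of replicate 1 lay at the promoters of 20 of the 85 genes (23.5%, interval 15.8 to 33.6), where 14.2% of all protein-coding genes had one. Those of replicate 2 lay at 13 (15.3%, interval 9.16 to 24.4), where 13.2% of all protein-coding genes had one. All 11 genes with an IDR promoter peak were among the 20, and 8 of them were among the 13. The 3 outside replicate 2's strong regions were eIF2A, eIF2Bgamma and AlaRS. Strong regions of both replicates, with summits within 300 bp of each other, lay at 11 of the 85 (12.9%), where 10.2% of all protein-coding genes had them.

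The full lists, which reach into background, gave shares at or near those of all genes. Replicate 1 had a region at the promoters of 31 of the 85 (36.5%, and 35.4% of all protein-coding genes), and replicate 2 at 25 (29.4%, and 33.7% of all). Matching regions of both lists lay at 19 (22.4%, and 20.9% of all). The pooled list had a region at 23 of the 85 (27.1%), where 31.7% of all protein-coding genes had one.

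**Figure D1:**
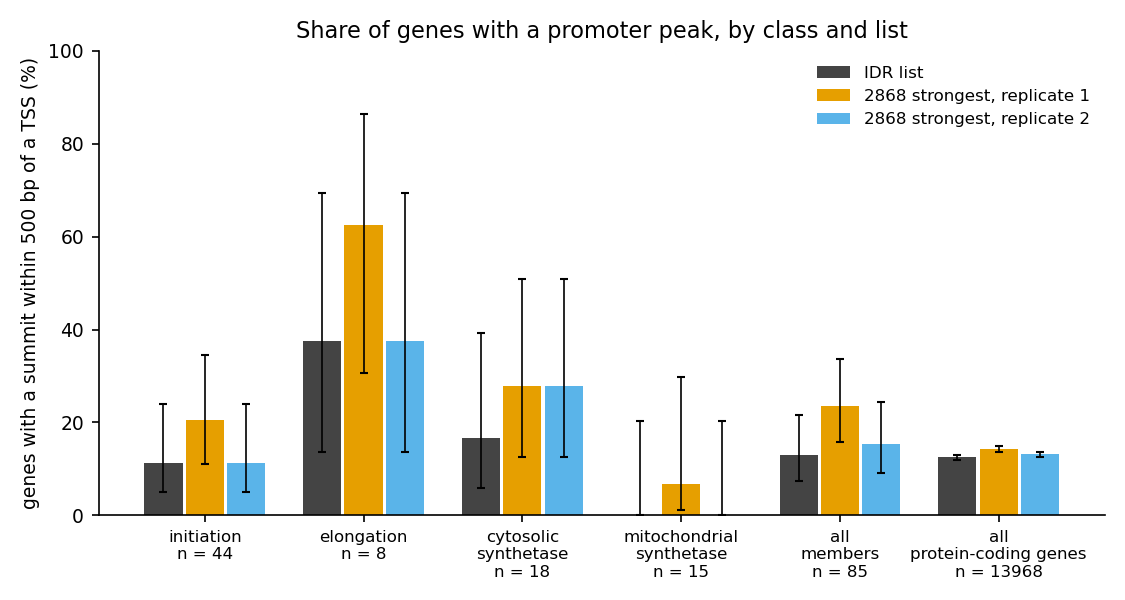
Share of genes with a summit within 500 bp of a TSS (percent, vertical axis) for each class, for all members and for all protein-coding genes. Bars give the IDR list and the 2868 strongest regions of each replicate, and lines are 95% Wilson intervals. Elongation factor genes stand highest with 3 of 8 in the IDR list, on an interval of 13.7 to 69.4%.

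Among initiation factors, the strongest peak belonged to eIF6, which keeps the large ribosomal subunit from joining the small one too early and acts in ribosome maturation. The gene (FBgn0034915) scored 405 in replicate 1 and 534 in replicate 2, and 937 in the pooled list at chr2R:23850244-23850565. It ranked 10 in replicate 1 and 3 in replicate 2, with the summit 94 bp upstream of its TSS. The next, eIF4EHP (FBgn0053100), encodes a cap-binding protein that represses the translation of chosen mRNAs. Its peak at chr3R:24109002-24109381 had 224 in replicate 1 and 212 in replicate 2, and 439 in the pooled list. That summit lay 240 bp upstream of eIF4EHP but 136 bp upstream of the divergent gene CG18428, so the peak lies at both promoters. These genes were the only members with an IDR promoter peak among the first 200 of the list.

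The other initiation factor peaks were weaker. The RNA helicase gene eIF4A (FBgn0001942), whose product unwinds mRNA leaders as part of the cap-binding complex, had a pair of promoter peaks. The first, at chr2L:5982241-5982670, lay 93 bp downstream of an internal TSS, in the 5' untranslated region. It had 56.1 in replicate 1 and 35.7 in replicate 2. The second, 333 bp upstream of the gene's 5' end, had 32.0 in replicate 1 and 26.1 in replicate 2. It was shared with chic, the profilin gene, 413 bp away. The gene eIF2A (FBgn0037135), for a factor that can bind initiator tRNA outside the main pathway, had 34.5 in replicate 1 and 22.7 in replicate 2, 94 bp upstream of its nearest TSS. Lastly, eIF2Bgamma (FBgn0034029), for a subunit of the exchange factor that recharges eIF2, had 30.7 in replicate 1 and 17.4 in replicate 2, 35 bp inside the gene. These weaker peaks each ranked higher within the replicate 1 list than within the replicate 2 list.

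Within the families, the counts are small and were read against the 12.5% of all protein-coding genes with a promoter peak; they set no family apart. None of the 16 eIF3 genes, which encode the large scaffold on the small ribosomal subunit and its paralogs, had one. Of these 16, strong regions of either replicate were found at eIF3h alone. None of the 3 eIF2 genes, for the carrier of initiator tRNA, had a region of any list within 500 bp of a TSS. Of the 5 eIF2B genes, eIF2Bgamma alone had any region there. In the eIF4E family of 7 genes, eIF4EHP alone had an IDR promoter peak. The main cap-binding gene eIF4E1 had no region of any list at its promoter, and nor did eIF4E6 and eIF4E7. The pooled list held a region of 17.1 at eIF4E3, ranked 25618, and of 18.6 at eIF4E4, ranked 20892, both near the floor of 16.0 of that list. The genes eIF4G2 and eIF4H1 had no region of any list within 500 bp of a TSS. Their paralogs eIF4G1 and eIF4H2 had no IDR promoter peak.

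Elongation factor peaks were found at eEF1gamma, eEF2 and eEF1alpha1. The product of eEF1gamma (FBgn0029176) anchors the complex that recharges eEF1A with GTP. Its peak at chr3R:29220078-29220211, 64 bp upstream, had 139 in replicate 1 and 127 in replicate 2. For eEF2 (FBgn0000559), the GTPase that moves the ribosome by a codon, the summit lay 14 bp inside the 5' untranslated region, with 78.5 in replicate 1 and 55.4 in replicate 2 at chr2L:21681935-21682364. The gene eEF1alpha1 (FBgn0284245), for the carrier of charged tRNA, had a peak at each of 2 promoters. One at chr2R:11891786-11892215, 121 bp upstream of an internal TSS, had 46.9 in replicate 1 and 67.2 in replicate 2. The other, 97 bp upstream of another TSS and shared with ERp60, a disulfide isomerase gene, had 32.4 in replicate 1 and 38.9 in replicate 2. Both ranked higher within the replicate 2 list than within the replicate 1 list, unlike the peak of eEF2.

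The paralog eEF1alpha2 had no region of any list within 500 bp of a TSS, and its nearest IDR summit was 20950 bp away. The exchange factor genes eEF1beta and eEF1delta had none either. The gene eEF5, known in other species as the factor eIF5A that relieves stalled ribosomes, had a strong region in replicate 1, with a signal of 51.0 at a summit 30 bp upstream. No region of replicate 2 or of the pooled list was listed at its promoter. For eEFSec, the selenocysteine factor, replicate 1 alone had a region, with 27.4 at 495 bp upstream, in a coding exon.

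Cytosolic synthetase peaks lay at GluProRS, IleRS and AlaRS. The enzyme of GluProRS (FBgn0005674) charges both glutamate and proline tRNAs. Its peak at chr3R:23958281-23958710, 105 bp upstream, had 112 in replicate 1 and 105 in replicate 2, and the divergent gene AP-1sigma, for a clathrin adaptor subunit, starts 155 bp from the same summit. For IleRS (FBgn0027086) the peak at chr3L:22288320-22288749, 130 bp upstream, had 56.0 in replicate 1 and 62.0 in replicate 2. It was shared with Hem, a gene of the WAVE actin regulators, 340 bp away. AlaRS (FBgn0027094) had 42.1 in replicate 1 and 18.4 in replicate 2 at chr2L:8381596-8382025, 47 bp upstream. Among the 13 promoter peaks of members this was the only one whose replicate signals differed more than 2-fold (ratio 2.29). Counting the strongest peak of each gene, that is 1 of 11 (9.09%), near the 9.62% of 1279 promoter peaks of all genes.

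For 14 amino acids both a cytosolic and a mitochondrial member were in the set, GluProRS being counted for 2 of them. The symbol rule left out alpha-PheRS and beta-PheRS, so PheRS-m had no cytosolic partner in the set. Neither of those genes had an IDR promoter peak. The cytosolic member had an IDR promoter peak for 4 of the 14, from the 3 genes above, and the mitochondrial member for 0 of the 14. With 12.5% of all protein-coding genes having such a peak, and the class intervals above both holding that share, these counts do not set the classes apart. In the full pooled list, 2 of the 15 mitochondrial genes had a region at the promoter (13.3%, interval 3.74 to 37.9), an interval that holds the 31.7% of all protein-coding genes. These were ArgRS-m with 25.1 at 121 bp upstream, ranked 8617, and ProRS-m with 24.3 at 94 bp downstream, ranked 9468. ArgRS-m was also the only mitochondrial gene with a strong region in a replicate, at 29.0 in replicate 1 and with none listed in replicate 2.

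**Figure D2:**
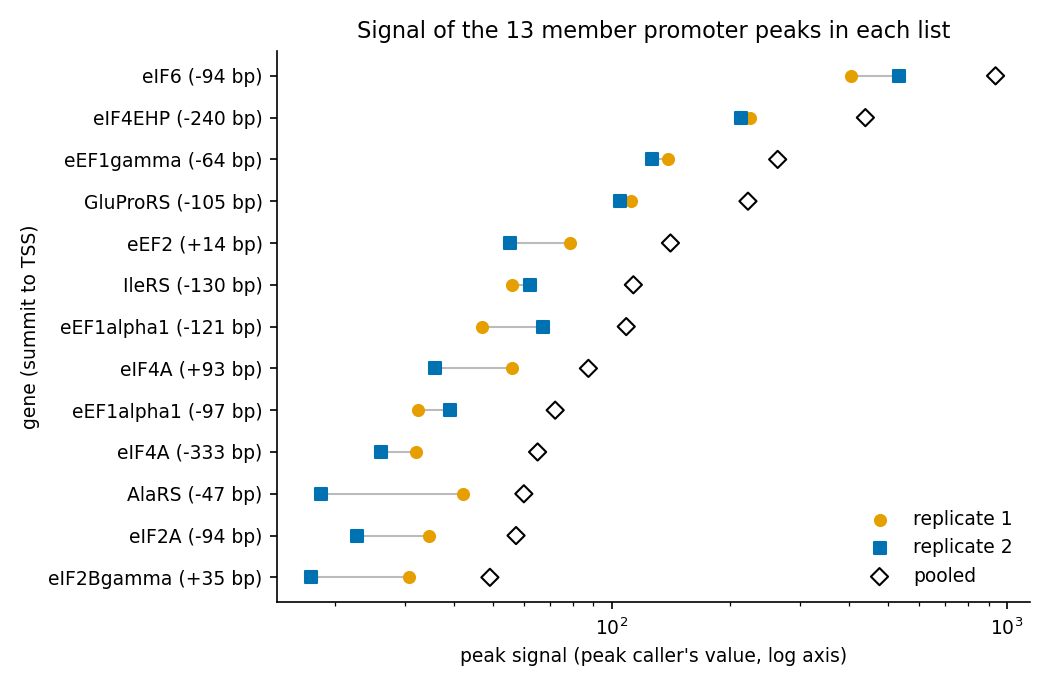
Peak signal on a log axis for the 13 IDR promoter peaks of the 11 genes, with the gene and the distance of the summit to its TSS on the vertical axis. Circles are replicate 1, squares replicate 2 and diamonds the pooled list. The strongest is eIF6 (405 and 534), and the replicates lie farthest apart in fold at AlaRS (42.1 and 18.4).

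Each gene is counted once here, by its strongest promoter peak. Over the 11 genes the pooled signal had a median of 114 and a range of 49.2 to 937, and over all 1748 genes with a promoter peak the median was 97.0 and the range 42.5 to 1624.5. The summit lay upstream in 8 of the 11 (72.7%), compared with 88.1% of the 1748, at a median of 94 bp upstream against 153 bp. The 3 summits downstream of the nearest TSS were those of eIF4A, eIF2Bgamma and eEF2. A second protein-coding TSS lay within 500 bp of the summit in 3 of the 11 (27.3%), and in 49.1% of the 1748. The weaker second peaks of eIF4A and eEF1alpha1, shared with chic and ERp60, are not in this count. The 5' untranslated region held 4 of the 11 summits (36.4%), compared with 14.4% of 1315 distinct peaks of all genes. The median GC content within 100 bp of the summit was 41.3%, from 23.4% at eIF4EHP to 53.7% at eIF4A, and was 33.8% over the 1315 peaks. The pooled region's false discovery rate exceeded 5% at 3 of the 11 (27.3%), namely eIF2A, eIF2Bgamma and AlaRS, and at 27.2% of the 1315.

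The DRE was the searched word whose share at member summits differed most, in percentage points, from that of all peaks. It lay within 100 bp of the summit at 6 of the 13 member peaks (46.2%), and at 81 of 1550 IDR peaks near any protein-coding TSS (5.23%), the 13 included. The genes were eIF2A, eIF4A at its upstream peak, eIF6, eEF1gamma, AlaRS and IleRS. At all 6 the word lay on the TSS side of the summit, from 8.5 bp at eIF2A to 91.5 bp at IleRS. Over the 81 peaks it lay nearer to the TSS than the summit did in 53 (65.4%). The word ended up close to the TSS in most of the 6, from 7.5 bp upstream at eIF6 to 85.5 bp at eIF2A, and 275.5 bp upstream at eIF4A. No test was made of this difference, since the members were chosen with earlier results known and the word is a description, not a site.

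**Figure D3:**
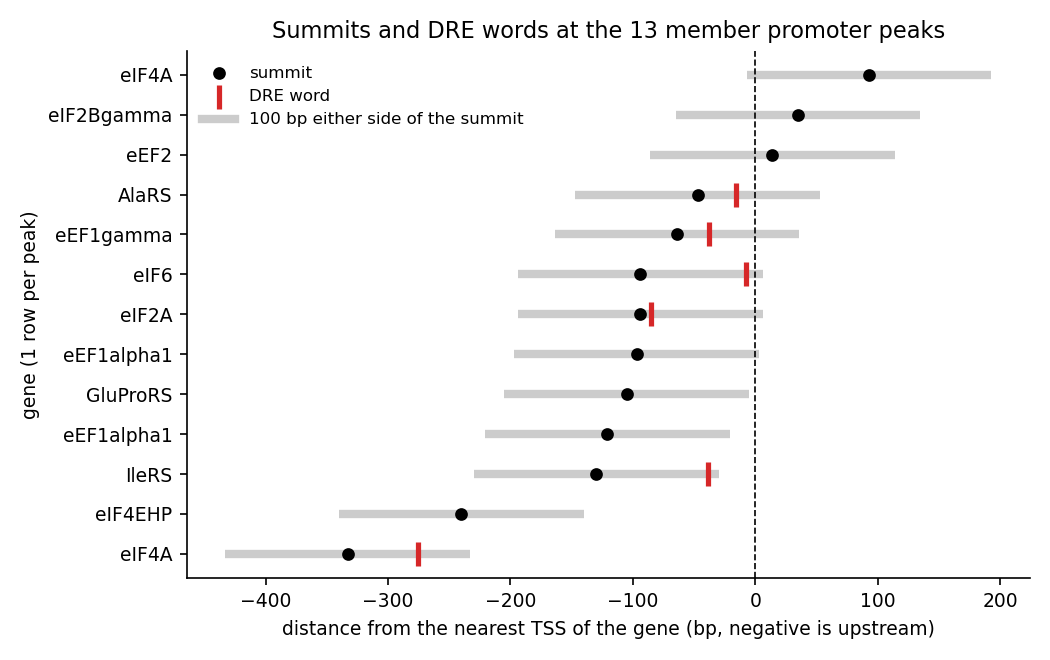
Position of the summit (black circle), the 100 bp on either side of it (grey) and any DRE word (red) at the 13 member promoter peaks, in bp from the nearest TSS of the gene (horizontal axis, negative upstream), with 1 row per peak. A DRE lies between summit and TSS at 6 of the 13.

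The DRE was also common at member promoters without a peak. In the 300 bp promoter, from 250 bp before to 50 bp after the 5' end of the gene, it was found at 5 of the 11 bound members and at 14 of the other 74 (18.9%). Over all members that is 19 of 85 (22.4%), and over all protein-coding genes 9.36%. Among all genes the share was 12.2% with a promoter peak and 8.95% without. By class it was 12 of 44 initiation factor genes, 2 of 8 elongation factor genes, 4 of 18 cytosolic synthetase genes and 1 of 15 mitochondrial synthetase genes. The BEAF-32 word was found at 54 of the 85 promoters (63.5%), compared with 47.3% of all, with every DRE counted in it as well.

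The E-box lay at 20 of the 85 promoters (23.5%), at 3 of the 11 bound members and 17 of the other 74 (23.0%). It was commoner at synthetase than at factor promoters, a contrast that was not tested. It lay in the promoters of 9 of 18 cytosolic and 7 of 15 mitochondrial synthetase genes, against 4 of 44 initiation factor genes, 0 of 8 elongation factor genes and 17.6% of all protein-coding genes. The GAGA element (GAGAG) lay at 14 of the 85 (16.5%), compared with 29.7% of all. The M1BP element (GGTCACACT) lay at 7 (8.24%), compared with 6.04%, and Ohler Motif 7 at 9 (10.6%), compared with 9.28%. The TATA word lay at 41 (48.2%), compared with 45.8%. The TCT initiator is known from genes of the translation machinery, where transcription starts in a run of pyrimidines. It was searched as TCTTT on the gene's strand with its C within 5 bp of a TSS, a search added after the peaks were seen. It was found at 6 of the 85 (7.06%), compared with 2.23% of all protein-coding genes. These were eIF4A and eEF2, with a promoter peak, and eIF3i, eIF3m, eEF5 and TyrRS, without.

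Strong replicate regions also lay at members that the IDR list left out. Of the 85 genes, 11 (12.9%) had a strong region of either replicate at the promoter and no IDR promoter peak, where 4.95% of all protein-coding genes did. In 3 of these 11 the strong regions of both replicates matched, with summits within 300 bp of each other (3.53% of the 85), where 0.845% of all protein-coding genes did. They were AsnRS, eIF3h and eIF5B.

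AsnRS (FBgn0086443) had 72.9 in replicate 1 and 71.4 in replicate 2, ranked 632 and 659, with summits 99 and 49 bp upstream. The pooled list held only a region of 33.1 there, 297 bp upstream and ranked 4206. eIF3h (FBgn0022023), for a subunit of the eIF3 scaffold, had 32.9 in replicate 1 and 85.5 in replicate 2, and no pooled region. These summits lay 40 and 229 bp downstream of an internal TSS. Replicate 2 also had a weaker region at this gene, with 56.9 at 5 bp upstream of the nearest TSS. The subunit-joining GTPase gene eIF5B (FBgn0026259) had 43.7 in replicate 1 and 36.4 in replicate 2, at 153 and 145 bp inside the gene, and no pooled region. So both replicates listed these promoters among their strong regions while the pooled list placed them low or not at all. A strong region of each also lay within 500 bp of another protein-coding gene's TSS. These genes were DCTN6-p27 at AsnRS, senju at eIF3h, and CG46463 and armi at eIF5B. At promoter IDR peaks listed in both replicates, the replicate signals summed to a median of 0.995 of the pooled signal. The reason for the missing entries was not tested.

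The other 8 were strong in 1 replicate. In replicate 2 these were AspRS with 96.4 and SerRS with 96.3, ranked 408 and 409, and neither had a region at the promoter in replicate 1. In replicate 1 the highest was eIF1A, for the factor that helps the ribosome scan, with 65.0 at 51 bp upstream and ranked 755, and replicate 2 had none. The others in replicate 1 were eEF5, GlyRS with 33.7, ArgRS-m, eIF4G1 with 28.3 and eEFSec. GlyRS alone of these also had a region in replicate 2, with 18.8. Apart from those of eEF5 and eIF4G1, the strong regions of these 8 also lay within 500 bp of another protein-coding gene's TSS. That other TSS was the nearer at AspRS (Nmda1) and at eEFSec (Acox57D-p).

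**Figure D4:**
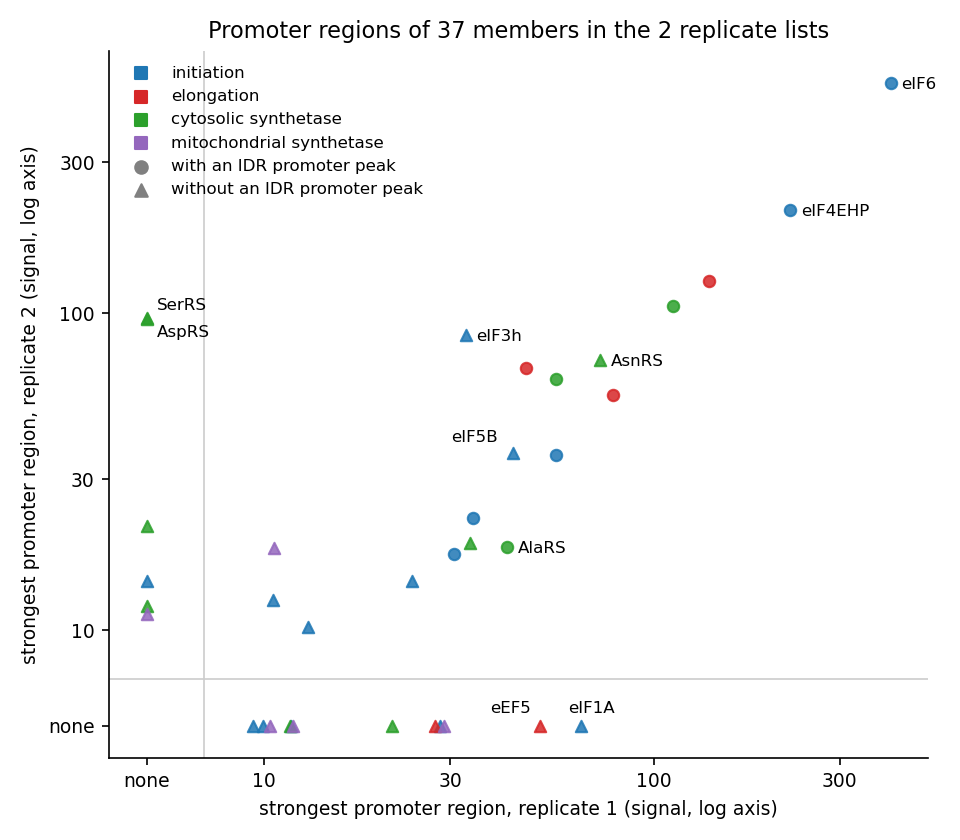
Signal of the strongest promoter region of each member in replicate 1 (horizontal, log axis) and replicate 2 (vertical, log axis), for the 37 members with a region in either list. Colour gives the class, circles have an IDR promoter peak and triangles have none, and "none" marks genes with no region within 500 bp of a TSS in that replicate. AsnRS, eIF3h and eIF5B sit among the circles.

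At 46 of the 85 genes (54.1%) no list had a region within 500 bp of a TSS, and 52.5% of all protein-coding genes had none. They included 26 initiation factor genes, 3 elongation factor genes, 7 cytosolic and 10 mitochondrial synthetase genes. A further 12 members had a region of the pooled list at the promoter but no IDR peak. They do not set the members apart. A pooled region lay at 27.1% of members and 31.7% of all protein-coding genes, and an IDR peak at 12.9% and 12.5%. The strongest of these 12, just below the lowest IDR signal of 42.5, was eIF3d1 with 38.6, 32 bp upstream. It was followed by AsnRS, by eIF4G1, for the scaffold of the cap-binding complex, with 30.5, by LeuRS with 28.4 and by eIF4H2 with 25.2. Among the 11 genes with an IDR promoter peak, the lowest signal of a gene's strongest peak was that of eIF2Bgamma, with 49.2.

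Beyond 500 bp, 4 members (4.71%) had their nearest IDR summit within 2000 bp, a share near the 5.29% of all protein-coding genes. The 4 cases are described for their place only. Upstream of eIF2Bbeta by 680 bp lay a peak of 736, at chrX:2703719-2704045, whose summit was 39 bp from a TSS of the sugar transporter gene Ugalt. For LeuRS-m the peak of 178 lay 932 bp upstream, in an intron of the dynein gene Dhc64C, with no protein-coding TSS within 500 bp. The peak of 172 lying 1251 bp upstream of eIF3d1 was 107 bp from a TSS of GILT2. That of AsnRS, with 73.3 at 1695 bp upstream, lay in an intron of Polr1D, within 500 bp of a TSS of Polr1D and of one of brat. In 3 of these 4 the peak was thus at the promoter of another gene. The median distance from a member to its nearest IDR summit was 12028 bp, and over all protein-coding genes 14765 bp.

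Inside the genes, over 500 bp from their own TSSs, 3 members held IDR summits (3.53%), where 5.32% of all protein-coding genes did. In eIF4EHP, which spans 45884 bp, 3 intronic peaks had pooled signals of 90.6, 45.5 and 43.2, and the weakest of them lay within 500 bp of a TSS of Syx1A. In eIF4G1 1 intronic peak had 76.9, with 45.6 in replicate 1 and 34.3 in replicate 2. In eIF5B 2 intronic peaks had 86.9 and 42.5, both 23324 bp or more from the TSS.

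Other genes of translation were taken from a list of termination, rescue, regulatory and mitochondrial factors. Of 45 symbols 39 were in the annotation, and 5 of the 39 (12.8%) had a promoter peak, a share near the 12.5% of all protein-coding genes. The listed symbol ben turned out to name a ubiquitin-conjugating enzyme gene outside translation, and without it 4 of 38 (10.5%) had one. Those 4 were Slimp, crc, Thor and MCTS1. Slimp, for a mitochondrial paralog of seryl-tRNA synthetase, had 38.3 in replicate 1 and 62.3 in replicate 2, 178 bp upstream. Thor, for the protein that binds and holds back eIF4E, had 38.3 in replicate 1 and 42.8 in replicate 2, 319 bp upstream. The gene crc, for the transcription factor ATF4 of the stress response to low translation, had 41.4 in replicate 1 and 27.1 in replicate 2, 288 bp upstream. MCTS1, which acts in reinitiation, had 16.5 in replicate 1 and 37.7 in replicate 2 and shared its peak with rux. Dph1, for an enzyme that modifies eEF2, had strong regions in both replicates, of 55.4 and 44.6, and no IDR peak. Release factor genes eRF1 and eRF3 had strong regions in replicate 1 alone, of 59.2 and 37.6, as did mEFTu2, of 44.6. The gene mIF2 had one in replicate 2 alone, of 38.5. Over all protein-coding genes, 4.95% had a strong region of either replicate and no IDR promoter peak.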

How the data were processed

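ChIP-seq peak lists of 2 biological replicates of 1 group were used. Peak signal and −log10 of the q-value per region were deposited by the authors in narrowPeak lists on build dm6: 30000 regions in each replicate's list and in the pooled one, and the IDR list. Per the labels, sonicated fragments were 200 to 800 bp. Peak caller, aligner and filters: not given in the sources used here. Depth is unknown, so intervals cover the counting of genes only, and signal was used to rank and describe regions within a list. Where replicate signals are set side by side or as a ratio, they were not scaled to each other. The dm3 lists were not used.

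All 2868 IDR peaks are regions of the pooled list, and 2590 are 430 bp wide, so summits were used. TSSs came from Ensembl release 115, transposable elements left out. Summits were matched between lists within 300 bp. Words were searched on both strands, except the TCT word. Intervals are 95% Wilson intervals, and a count of 0 allows 3 counts of the total. No test was made: the members and lists were chosen with earlier results of these data known. Named genes are those with an IDR promoter peak or an IDR summit up to 2000 bp away, up to 4 others per class with the strongest pooled regions, paralogs and genes sharing a peak. The genes with strong replicate regions were chosen after their values were seen. Alternatives were windows, list cut-offs, single replicates and ways of assigning peaks. Code was tested on simulated data with scipy 1.17.1, pandas 2.3.3 and numpy 2.4.6 under Python 3.11.15, and figures were drawn with matplotlib 3.10.9.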

Additional observations from a re-analysis of the deposited data

How the results depend on the processing

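Under 10 alternatives, 50 of 70 counts and medians stayed within the limits set, which are 1.5 times for a count and the SD between replicates for a median (4.19 for signal, 33.2 bp for distance). With every region of the pooled list, which includes background, 23 members were called, among them 12 initiation factor, 6 cytosolic and 2 mitochondrial synthetase genes, with a median signal of 38.6. Both the 1434 strongest IDR peaks and a false discovery rate of at most 5% gave 3 initiation factor genes and a median signal of 181. Each called 8 members (9.41%), where 8.03% and 9.42% of all protein-coding genes were called. A window of 1000 bp gave 1 mitochondrial synthetase gene and a median signal of 141. That window called 13 members (15.3%), where 14.5% of all protein-coding genes were called. With a single replicate the counts ran from 13 (without replicate 1) to 20 (without replicate 2) for all members, 5 to 9 for initiation factors and 3 to 5 for elongation factors. They were 5 either way for cytosolic synthetases and 0 to 1 for mitochondrial ones. The median signal ran from 49.0 to 85.5, on the scale of a single replicate, and the median distance from -93.5 to -49 bp. The cause of these differences was not tested. No paired analysis was possible because there is 1 group and no test. Depth is unknown, so a promoter without a region is not shown to lack binding.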

Other observations

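Regions that are strong in both replicates and missing from the pooled list were not limited to these genes. Of 1993 strong regions of replicate 1 with a summit within 300 bp of a strong region of replicate 2, 95 (4.77%) had no summit of the pooled list within 300 bp, and the highest of the 95 ranked 24 in replicate 1. In all, 118 protein-coding genes had matched strong regions of both replicates at the promoter and no IDR promoter peak, and 113 of these had no pooled region at the promoter at all.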
